A study of Homo sapiens with 10 samples.

Results

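HERVH is a family of endogenous retroviruses, and its RNA was followed through 8 rows of a count table that covers genes and repeat families. The 5 repeat rows are HERVH-int, the internal region of the provirus, and LTR7, LTR7B, LTR7C and LTR7Y, the long terminal repeats that flank it. The 3 gene rows are ESRG, HHLA1 and ABHD12B, which are known to give transcripts that start in or run through HERVH copies. The rows were taken by name out of 61832 in all, which are 60651 genes and 1181 repeat families. They were chosen by name with their measured levels across the 5 groups already known, and those levels are given as a description. The tests below are not independent support for the choice. Of the 8 rows, 7 passed the filter on low counts; ABHD12B did not. ESRG and HHLA1 passed through their counts in t-hESC cells.

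RNA was measured in 10 libraries, 2 for each of 5 groups, after 48 hours. The groups were t-hESC cells with 1 µM BIX, t-hESC cells with 10 µM VXN, t-hESC cells with DMSO, HT29 cells with 10 µM VXN and HT29 cells with DMSO. HT29 cells are a long-established line from a colorectal cancer, and the labels call t-hESC a transformed pluripotent stem cell, with no word on clones. BIX commonly names a compound that inhibits the histone methyltransferases G9a and GLP, while VXN is given only as a code name. DMSO is the vehicle. The 2 libraries of a group are described as biological replicates with no detail on how cultures were separated. The p-values reflect the spread between such libraries, pooled over all 10 and drawn toward that of other features. They do not rest on the 4 libraries of a comparison alone.

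HERVH entered the primate lineage as a retrovirus and now exists as many copies, some with an internal region between a pair of repeats and many as a lone repeat. LTR7 acts as its promoter and is bound in human pluripotent cells by factors such as POU5F1, NANOG and KLF4, and HERVH RNA is abundant there and low in most differentiated cells. LTR7B, LTR7C and LTR7Y are sequence variants of the repeat, and LTR7Y has been linked to cells that resemble the early embryo. Silencing of such elements in other cells runs through TRIM28 and SETDB1, which place repressive methylation on histones, through G9a and GLP (EHMT2 and EHMT1), and through DNA methylation.

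Gene counts per library lay between 13137026 and 24492838. Levels are given in CPM, which scales each library to the same total of gene counts after a correction factor computed on genes alone. Before that factor is applied, a count of 3 is worth 0.122 to 0.228 CPM. Of 12 pluripotency genes, 1 (ZFP42, a marker often used for stem cells) lay below 1 CPM in every t-hESC library, and their summed level was 5219 to 5898 CPM in t-hESC and 13.4 to 19.3 CPM in HT29 libraries. Of 12 genes of colorectal epithelium, 8 lay below 1 CPM in every t-hESC library and 2 (CDH17 and CDX1) in every HT29 library, with sums of 669 to 793 CPM in t-hESC and 7797 to 10417 CPM in HT29. A list of 8 fibroblast genes summed to 1227 to 1462 CPM in t-hESC and 4.22 to 12.2 CPM in HT29, with DCN, LUM and COL3A1 below 1 CPM in every t-hESC library. A neural progenitor list of 5 genes summed to 382 to 397 CPM in t-hESC and 2.33 to 4.45 CPM in HT29. A list of 6 endoderm and trophoblast genes summed to 5.44 to 9.72 CPM in t-hESC and 78.3 to 94.2 CPM in HT29. The part of these cell type markers in the results was not tested. In bulk RNA, more cells with a transcript and more of it per cell cannot be told apart.

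The internal region stood far higher in t-hESC than in HT29 cells, and within t-hESC it was higher with either compound than with DMSO. HERVH-int had 3755 and 3851 CPM in t-hESC BIX, 2406 and 2706 CPM in t-hESC VXN, against 1894 and 1912 CPM in t-hESC DMSO. In HT29 cells it had 124 and 128 CPM under VXN, against 156 and 154 CPM under DMSO. No group overlapped another. Within t-hESC the treated libraries all stood above the DMSO libraries, and within HT29 the treated libraries stood below them.

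LTR7, the promoter repeat, had the same contrast of lines and treatments. It had 768 and 766 CPM in t-hESC BIX, 630 and 608 CPM in t-hESC VXN, against 486 and 489 CPM in t-hESC DMSO. In HT29 it had 24.2 and 24.3 CPM under VXN, against 29.1 and 26.8 CPM under DMSO. The HT29 DMSO pair spread more widely than the VXN pair, and the groups again did not overlap.

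The other repeats had few counts in every group and differed far less between the lines. LTR7B had 9.51 and 12.1 CPM in t-hESC BIX, 8.3 and 9.87 CPM in t-hESC VXN and 8.13 and 8.42 CPM in t-hESC DMSO. It had 12.3 and 13.6 CPM in HT29 VXN, against 8.81 and 9.09 CPM in HT29 DMSO. The HT29 VXN libraries were thus the highest of the 10. The VXN and DMSO libraries of t-hESC overlapped, and so did those of t-hESC VXN and HT29 DMSO.

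LTR7C had 3.53 and 4.11 CPM in t-hESC BIX, 4.78 and 4 CPM in t-hESC VXN, against 2.53 and 2.35 CPM in t-hESC DMSO. In HT29 it had 7.56 and 7.09 CPM under VXN, against 2.8 and 2.73 CPM under DMSO. Treated libraries of either line stood above all 4 DMSO libraries, and HT29 VXN was the highest.

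LTR7Y had 7.18 and 8.65 CPM in t-hESC BIX, 8 and 7.84 CPM in t-hESC VXN, against 5.27 and 5.88 CPM in t-hESC DMSO. In HT29 it had 5.07 and 6.13 CPM under VXN, against 9.51 and 8.79 CPM under DMSO. The HT29 DMSO libraries were the highest of all, and the HT29 VXN libraries overlapped those of t-hESC DMSO. LTR7Y was the repeat row whose order between the lines turned with the treatment.

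ESRG, a long noncoding RNA of pluripotent cells built on a HERVH copy, had 219 and 221 CPM in t-hESC BIX, 117 and 119 CPM in t-hESC VXN, against 155 and 150 CPM in t-hESC DMSO. It had 1 and 0 reads in HT29 VXN, and likewise 1 and 0 reads in HT29 DMSO. Its BIX libraries lay above and its VXN libraries below the t-hESC DMSO libraries, so ESRG parted from HERVH-int under VXN. ESRG lies on chromosome 3 at 54632124 to 54639857 (GRCh38.p14), inside the calcium channel subunit gene CACNA2D3. The kit does not mark strand, so reads of overlapping genes cannot be told apart; CACNA2D3 itself averaged 3.34 CPM in t-hESC BIX, 2.59 CPM in t-hESC VXN and 3 CPM in t-hESC DMSO.

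HHLA1, named for its link to a HERVH repeat, lies on chromosome 8 at 132061480 to 132111157 and sat close to the counting limit. It had 10 and 8 reads in t-hESC BIX, 11 and 10 reads in t-hESC VXN, against 8 and 5 reads in t-hESC DMSO, and 0 reads in all HT29 libraries. This came to 0.564 to 0.657 CPM in the treated t-hESC libraries, against 0.439 and 0.235 CPM in t-hESC DMSO. ABHD12B, a gene of the alpha/beta hydrolase family on chromosome 14 at 50872053 to 50904970, had 5 and 4 reads in t-hESC BIX, 7 and 6 in t-hESC VXN, against 6 and 1 in t-hESC DMSO. In HT29 it had 2 and 2 reads under VXN, against 4 and 4 under DMSO. In CPM the t-hESC DMSO libraries spanned those with BIX, and at these counts no difference of ABHD12B between treatments was tested. LINC-ROR, another noncoding RNA that starts in HERVH, lies on chromosome 18 at 57054559 to 57072119. It had 7 and 2 reads in t-hESC BIX, 2 and 1 in t-hESC VXN and 1 and 2 in t-hESC DMSO. In HT29 it had 1 and 0 reads under VXN and 0 reads in both DMSO libraries.

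**Figure D1:**
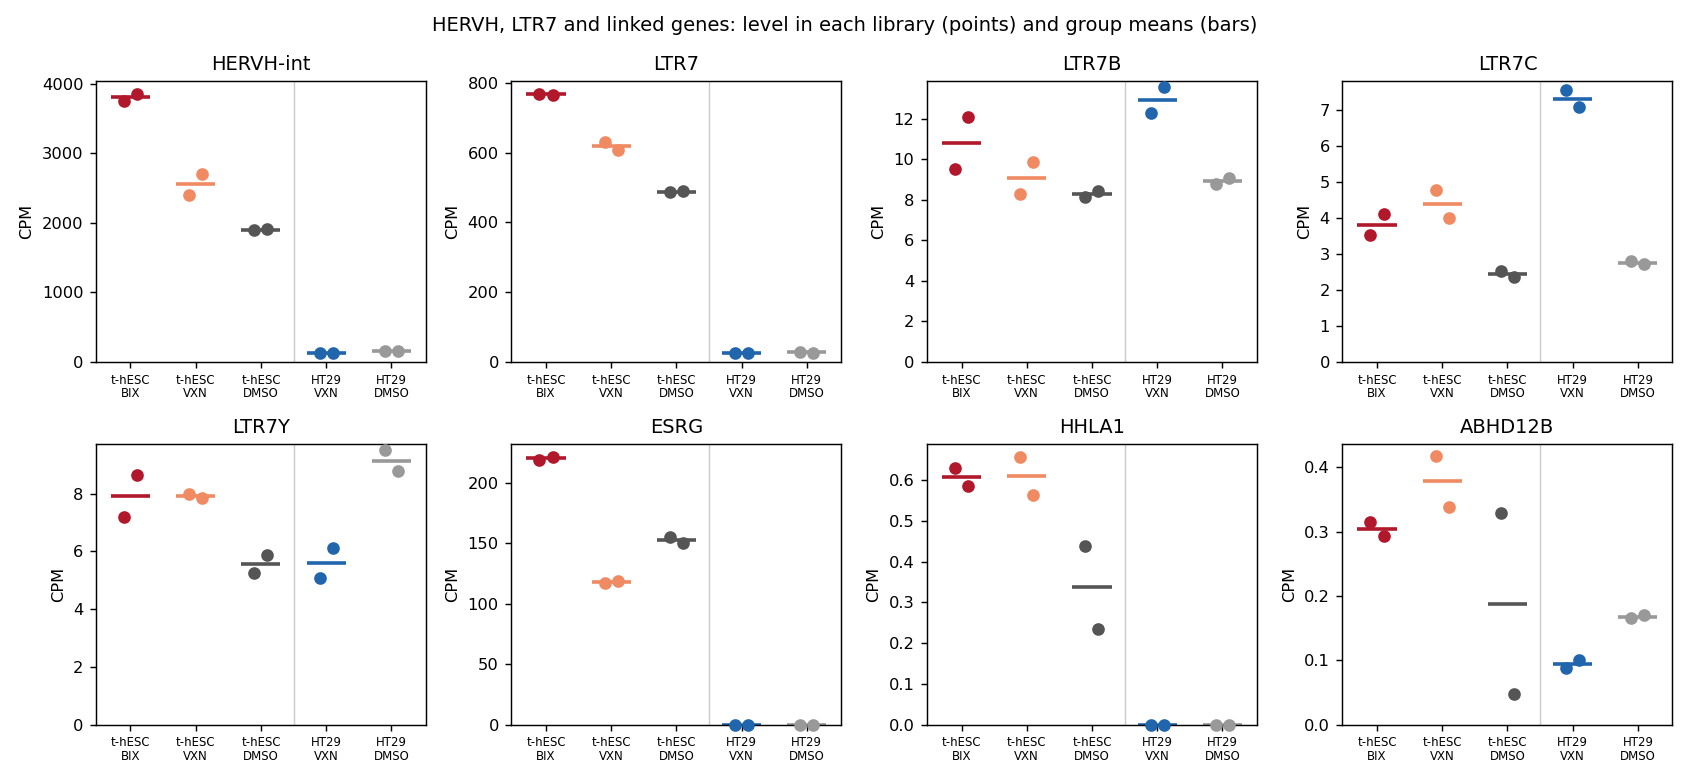
Level in CPM (vertical axis, linear from 0, own scale in each panel) of each of the 8 rows in the 5 groups; points are libraries and bars are means of 2. HERVH-int and LTR7 sit high in all t-hESC groups, ESRG is near 0 in HT29, and LTR7B, LTR7C and LTR7Y show no such gap between the lines.

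Between the lines, HERVH-int and LTR7 carried nearly all of the difference. HERVH-int averaged 1903 ± 12.9 CPM in t-hESC DMSO and 155 ± 1.84 CPM in HT29 DMSO (SD, n = 2 each), a 12.3-fold difference. LTR7 averaged 487 ± 2.09 CPM in t-hESC DMSO and 27.9 ± 1.64 CPM in HT29 DMSO, a 17.4-fold difference. Under VXN the gap was 20.2-fold for HERVH-int and 25.5-fold for LTR7. No p-value is given, since the rows were chosen with these levels known.

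The 3 variant repeats showed no such gap. The log2 difference between t-hESC and HT29 under DMSO was -0.11 ± 0.115 (SE) for LTR7B, -0.18 ± 0.195 for LTR7C and -0.71 ± 0.126 for LTR7Y. The value for LTR7B became 0.001 with upper-quartile factors and 0.19 per repeat count, and that for LTR7C 0.12 per repeat count, so neither kept its sign. Under VXN the differences were -0.50 ± 0.11 for LTR7B, -0.74 ± 0.149 for LTR7C and 0.51 ± 0.136 for LTR7Y.

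ESRG had 6004 reads over both t-hESC DMSO libraries and 1 read over both HT29 DMSO libraries, a depth-adjusted ratio of 7261 with a 95% counting interval of 1303 to 286858. HHLA1 had 13 reads over the t-hESC DMSO libraries and 0 over the HT29 DMSO libraries, and the lower 95% counting limit of its ratio was 3.69. ABHD12B gave 7 reads in t-hESC DMSO and 8 in HT29 DMSO, a ratio of 1.06 with an interval of 0.327 to 3.34. It gave 13 reads in t-hESC VXN and 4 in HT29 VXN, a ratio of 4.02 with an interval of 1.24 to 16.9. These intervals cover counting error only. They are a description and not a test, since the rows were chosen with these levels known. In the authors' deposited table for HT29 VXN over t-hESC VXN, which runs the other way round, the log2 fold change was -4.41 for HERVH-int, -4.77 for LTR7, 0.37 for LTR7B, 0.58 for LTR7C, -0.56 for LTR7Y and -12.10 for ESRG.

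HERVH and LTR7 took a share of all repeat counts that differed as strongly. The 5 repeat rows together held 10.7% ± 0.0527 of the repeat counts in t-hESC BIX, 7.59% ± 0.464 in t-hESC VXN and 6.62% ± 0.0708 in t-hESC DMSO (SD, n = 2). They held 0.276% ± 0.00673 in HT29 VXN and 0.455% ± 0.0104 in HT29 DMSO. Of the counts of ERV1, the class of retroviruses to which HERVH belongs, they made up 64.5% in t-hESC BIX, 57.6% in t-hESC VXN and 54.7% in t-hESC DMSO. The share was 7.62% in HT29 VXN and 12% in HT29 DMSO. So HERVH was the greater part of ERV1 counts in t-hESC and a minor part in HT29. Even so, among 578 repeat rows of the long terminal repeat class, HERVH-int ranked 3 in HT29 DMSO and 11 in HT29 VXN. It ranked 1 in every t-hESC group.

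The summed counts of all other repeats differed in the opposite direction between the lines, though single families such as HERVK-int, with 63.8 CPM in t-hESC DMSO and 18.7 CPM in HT29 DMSO, did not. They amounted to 3.97% ± 0.0849 of gene counts in t-hESC BIX, 4% ± 0.0116 in t-hESC VXN and 3.42% ± 0.0186 in t-hESC DMSO. In HT29 they amounted to 5.96% ± 0.00531 under VXN and 4.45% ± 0.0442 under DMSO.

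The proportion of internal region to promoter repeat differed as well. There were 4.96 ± 0.0961 HERVH-int counts per LTR7 count in t-hESC BIX, against 3.91 ± 0.00978 in t-hESC DMSO. The t-hESC VXN libraries had 3.82 and 4.45, which lay on either side of the DMSO libraries. In HT29 the ratio was 5.22 ± 0.11 under VXN and 5.56 ± 0.26 under DMSO. HERVH-int counts per ESRG count were 17.3 ± 0.181 in t-hESC BIX and 21.7 ± 1.53 in t-hESC VXN, against 12.5 ± 0.387 in t-hESC DMSO. HERVH-int therefore exceeded ESRG by more in treated than in DMSO cells, and how reads that match both were counted is a detail not given in the sources used here.

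**Figure D2:**
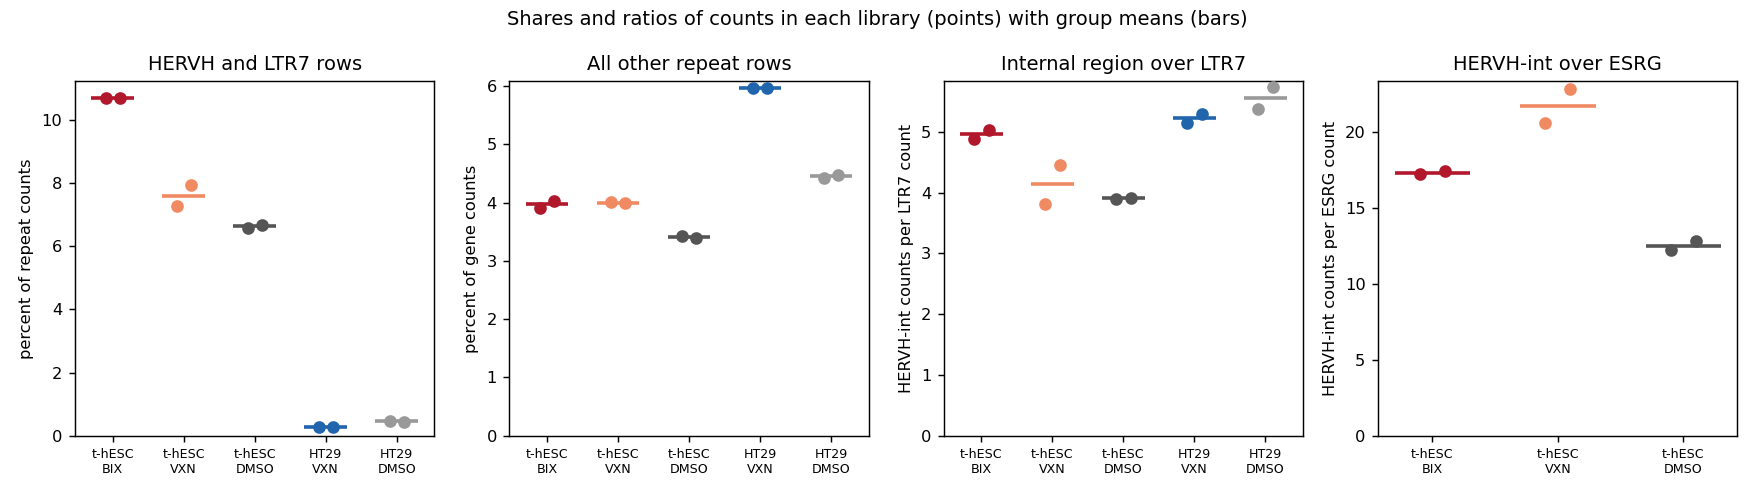
From left to right, the 5 HERVH and LTR7 rows as percent of repeat counts, all other repeats as percent of gene counts, HERVH-int counts per LTR7 count, and HERVH-int counts per ESRG count (t-hESC only); points are libraries and bars are means of 2. The HERVH share is 10.7% in t-hESC BIX and under 1% in HT29, while other repeats are highest in HT29 VXN at 5.96%.

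With BIX in t-hESC, the internal region, all 4 repeats and ESRG were higher than with DMSO. HERVH-int rose 2-fold (log2 1.00 ± 0.0352 SE, edgeR adjusted p = 1.85e-17), the mean being 3803 ± 67.7 CPM in t-hESC BIX and 1903 ± 12.9 CPM in t-hESC DMSO. LTR7 rose by 0.65 ± 0.0297 (adjusted p = 9.67e-27) and ESRG by 0.53 ± 0.0377 (adjusted p = 6.77e-18) on the log2 scale. The variants rose too, LTR7B by 0.37 ± 0.123 (adjusted p = 0.0195), LTR7C by 0.64 ± 0.202 (adjusted p = 0.0136) and LTR7Y by 0.49 ± 0.143 (adjusted p = 0.00711). HHLA1 had a log2 fold change of 0.87 ± 0.566 and did not pass (adjusted p = 0.298).

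Thus 6 of the 7 tested rows were called under BIX, where 23.4% of all tested genes and repeat families were called in either direction. Repeats as a whole leaned upward: 29.2% of the 1016 tested repeat families were called higher and 4 families lower, with a median log2 fold change of 0.24, against 0.64 over the 5 HERVH and LTR7 rows and 0.0096 over all features. Of 271 other ERV1 families, 69 rose and 0 fell. HERVH-int ranked 36 of 1016 by fold change, LTR7 113, LTR7C 118, LTR7Y 207 and LTR7B 321. The calls of LTR7B, LTR7C and LTR7Y were lost with DESeq2 (adjusted p = 0.147, 0.111 and 0.0877) and without t-hESC BIX replicate 2, and 1 or more of them without either t-hESC DMSO library. Scaled by repeat counts in place of gene counts, HERVH-int still rose by 0.76 and LTR7 by 0.42, while LTR7B, LTR7C and LTR7Y did not pass and 43.6% of the repeat families then called were higher.

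In the authors' deposited table for BIX, HERVH-int had a log2 fold change of 0.75 (adjusted p = 0.0364) and ESRG of 0.49 (adjusted p = 6.37e-06). LTR7 had 0.46 in the authors' deposited table and did not pass (adjusted p = 0.0681). LTR7B had 0.063 (adjusted p = 0.554), LTR7C 0.066 (adjusted p = 0.378) and LTR7Y 0.046 (adjusted p = 0.569) in the authors' deposited table, and none passed. The values for these 6 rows were closer to 0 than those computed here. The summed level of the pluripotency genes was 5781 CPM in t-hESC BIX, 5227 CPM in t-hESC VXN and 5849 CPM in t-hESC DMSO, and that of the fibroblast genes 1404 CPM in t-hESC BIX, 1458 CPM in t-hESC VXN and 1230 CPM in t-hESC DMSO. Their part in the t-hESC results was not tested.

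VXN in t-hESC moved most of the repeats upward and ESRG downward. HERVH-int rose by 0.43 ± 0.0351 on the log2 scale (1.34-fold, edgeR adjusted p = 3.49e-10), with a mean of 2556 ± 212 CPM in t-hESC VXN and 1903 ± 12.9 CPM in t-hESC DMSO. LTR7 rose by 0.35 ± 0.0298 (adjusted p = 6.83e-15), LTR7C by 0.85 ± 0.189 (adjusted p = 0.000279) and LTR7Y by 0.50 ± 0.138 (adjusted p = 0.00337). ESRG fell by 0.37 ± 0.04 (adjusted p = 2.29e-11), with 118 ± 1.49 CPM in t-hESC VXN and 152 ± 3.69 CPM in t-hESC DMSO. LTR7B had 0.14 ± 0.123 (adjusted p = 0.453) and HHLA1 0.87 ± 0.546 (adjusted p = 0.249), and neither passed.

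So 5 of the 7 tested rows were called, where 29.0% of all features were called in either direction, and 4 of the 5 repeats were higher, where 29.0% of repeat families were higher. The median log2 fold change was 0.23 over repeat families, 0.43 over the 5 HERVH and LTR7 rows and 0.015 over all features. By fold change LTR7C ranked 61 of 1016, LTR7Y 168, HERVH-int 231, LTR7 325 and LTR7B 673. Per repeat count 43.6% of the families called were higher, and HERVH-int was at 0.21 and no longer passed (adjusted p = 0.0694), while LTR7 was at 0.13 and passed (adjusted p = 1.6e-07). LTR7Y did not pass per repeat count (adjusted p = 0.223), and neither did it with DESeq2 (adjusted p = 0.0863) or without t-hESC DMSO replicate 1 (adjusted p = 0.053).

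In the authors' deposited table for VXN in t-hESC, ESRG alone of the 6 rows with an adjusted p passed, with a log2 fold change of -0.34 (adjusted p = 0.00232). HERVH-int had 0.077 (adjusted p = 0.556) and LTR7 0.11 (adjusted p = 0.481) in the authors' deposited table, and LTR7C had 0.32 (adjusted p = 0.12) and LTR7Y 0.076 (adjusted p = 0.515). BIX and VXN were given at different doses and share their DMSO libraries, so their values stand side by side without a test between them. Other retroviral rows had their own pattern: HERVK-int, a younger family, had 0.87 ± 0.0491 under BIX and 1.59 ± 0.0451 under VXN, and its repeat LTR5_Hs 0.59 ± 0.0516 and 1.26 ± 0.047, all called higher. HERVH48-int, a separate family with a like name, had 0.53 ± 0.211 under BIX, not called, and 0.56 ± 0.202 under VXN, called higher, and its repeat MER48 was not called in either (0.043 ± 0.237 and 0.019 ± 0.229).

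**Figure D3:**
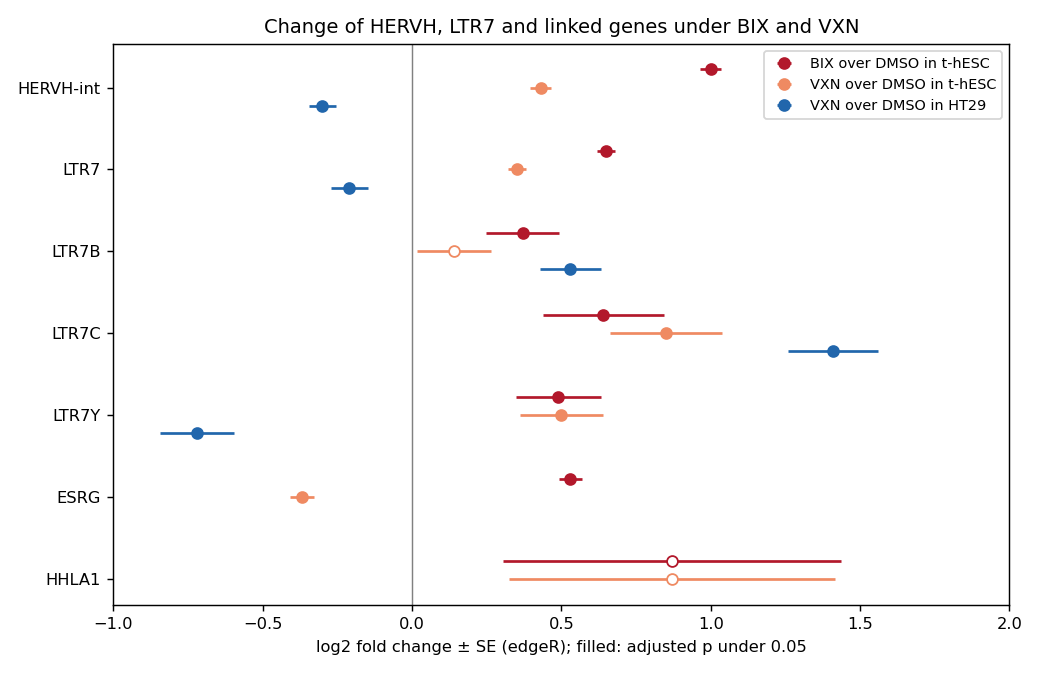
Log2 fold change (horizontal axis) with its standard error for each tested row under BIX in t-hESC, VXN in t-hESC and VXN in HT29; filled points have an adjusted p under 0.05. HERVH-int is at 1.00, 0.43 and -0.30, and ESRG and HHLA1 have no HT29 value because they are at or near 0 counts there.

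In HT29, HERVH-int, LTR7 and LTR7Y were lower with VXN than with DMSO, while most repeat families were higher. HERVH-int fell by 0.30 ± 0.0466 on the log2 scale (0.815-fold, edgeR adjusted p = 4.09e-06), with 126 ± 2.87 CPM in HT29 VXN and 155 ± 1.84 CPM in HT29 DMSO. LTR7 fell by 0.21 ± 0.063 (adjusted p = 0.00349) and LTR7Y by 0.72 ± 0.124 (adjusted p = 8.07e-07). LTR7C rose by 1.41 ± 0.151 (adjusted p = 1.81e-12) and LTR7B by 0.53 ± 0.103 (adjusted p = 8.8e-06). ESRG, HHLA1 and ABHD12B were at or under 4 reads in every HT29 library and gave no fold change.

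All 5 repeat rows were called, where 60.5% of all features were called in either direction. Of the repeat families 67.7% were higher and 4.13% lower, and 3 of these 5 rows were among the lower ones. The median log2 fold change was 0.52 over repeat families, -0.21 over the 5 rows and 0.085 over all features. From the top of the 1016 families, LTR7C ranked 47, LTR7B 494, LTR7 943, HERVH-int 958 and LTR7Y 1000. Of the 271 other ERV1 families, 147 rose and 14 fell. Per repeat count HERVH-int stood at -0.81, LTR7 at -0.72 and LTR7Y at -1.23, and LTR7B at 0.017, which was not called (adjusted p = 0.913), and 47% of the families called were higher. Without HT29 DMSO replicate 1, LTR7 was at -0.15 and not called (adjusted p = 0.101).

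In the authors' deposited table for VXN in HT29, LTR7C passed with a log2 fold change of 1.22 (adjusted p = 0.00015), and the other 4 repeat rows did not. HERVH-int had -0.28 (adjusted p = 0.425), LTR7 -0.24 (adjusted p = 0.41), LTR7B 0.40 (adjusted p = 0.15) and LTR7Y -0.64 (adjusted p = 0.0658) in the authors' deposited table. The summed level of the pluripotency genes was 17.6 CPM in HT29 VXN and 14.1 CPM in HT29 DMSO, and of the colorectal genes 7810 CPM in HT29 VXN and 10397 CPM in HT29 DMSO. The fibroblast genes summed to 11.1 CPM in HT29 VXN and 4.93 CPM in HT29 DMSO. Of these, DCN, PDGFRB, THY1 and COL3A1 lay below 1 CPM in every HT29 library. Among the 6 fibroblast genes tested, 5 rose and 0 fell, with a median log2 fold change of 1.74. Among 11 pluripotency genes tested, 4 rose and 1 fell, and among 11 colorectal genes 2 rose and 6 fell. Of the 12 pluripotency genes, 6 (NANOG, LIN28A, PRDM14, ZFP42, SOX2 and LIN28B) lay below 1 CPM in every HT29 library. Changes of such genes in HT29 rest on low counts. Over all features 34.5% rose and 26% fell. The part of these genes in the result was not tested.

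**Figure D4:**
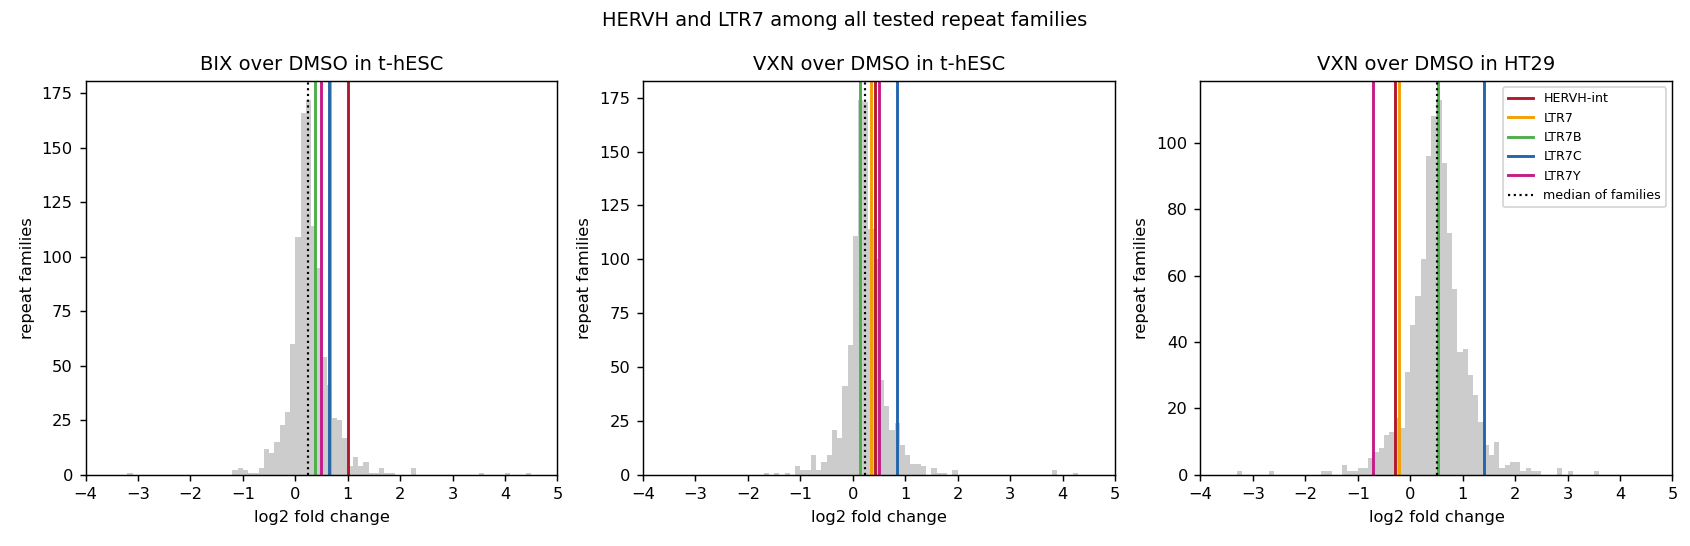
Histograms of the log2 fold change of the 1016 tested repeat families (vertical axis, number of families) in each comparison, with HERVH-int and the 4 LTR7 rows as coloured lines and the median as a dotted line. In t-hESC the rows lie right of the median, apart from LTR7B under VXN, while in HT29 HERVH-int, LTR7 and LTR7Y lie left of the median of 0.52.

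The effect of VXN differed between the lines for most of the repeat rows when the difference itself was tested. The rows were chosen with their levels in these groups known, so the p-values here are no independent support. The t-hESC effect minus the HT29 effect was 0.72 ± 0.0583 for HERVH-int (edgeR adjusted p = 6.39e-11), 0.55 ± 0.0696 for LTR7 (adjusted p = 6.26e-10) and 1.22 ± 0.185 for LTR7Y (adjusted p = 9.51e-08). LTR7B had -0.39 ± 0.16 (adjusted p = 0.0412), a call that was lost under most other settings, DESeq2 among them (adjusted p = 0.334). LTR7C had -0.56 ± 0.248 and did not pass (adjusted p = 0.0626). These are 4 calls among 5 rows, where 43.0% of all features were called in either direction. Of the repeat families, 4.92% had a higher effect in t-hESC and the median difference was -0.28, whereas 3 of the 5 rows had a higher effect in t-hESC and their median was 0.55. Per repeat count the median family moved to 0.021 and 57% of the families called had a higher effect in t-hESC, with HERVH-int at 1.02, LTR7 at 0.85 and LTR7Y at 1.52, all called. For the repeat families at large, the median log2 fold change under VXN was 0.23 in t-hESC and 0.52 in HT29.

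Genes known to act on LTR7 were read beside these changes. Of 10 such factors, 6 rose and 0 fell under BIX, 4 rose and 2 fell under VXN in t-hESC, and 6 rose and 1 fell under VXN in HT29. Their median log2 fold change was 0.24 under BIX, 0.15 under VXN in t-hESC and 0.47 under VXN in HT29, where the medians over all features were 0.0096, 0.015 and 0.085. Over all features, 11.7% rose and 11.7% fell under BIX, 15.1% rose and 14% fell under VXN in t-hESC, and 34.5% rose and 26% fell under VXN in HT29. The 7 of 10 called in HT29 stand near the 60.5% of all features called there. The HT29 median of 0.47 includes NANOG, with 0 to 2 reads per HT29 library, and SOX2, with 2 to 5 reads. EP300, a histone acetyltransferase, had 123 and 136 CPM in t-hESC BIX, 103 and 116 CPM in t-hESC VXN, against 76.9 and 79.2 CPM in t-hESC DMSO. It rose by 0.73 ± 0.048 under BIX (edgeR adjusted p = 6.23e-19) and by 0.49 ± 0.0481 under VXN (adjusted p = 1.58e-12). Its paralogue CREBBP rose by 0.61 ± 0.0531 under BIX (adjusted p = 2.35e-14) and by 0.31 ± 0.0536 under VXN (adjusted p = 5.18e-06).

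MED12, a Mediator subunit, rose by 0.37 ± 0.0573 under BIX (adjusted p = 6.72e-07). The pluripotency factors went several ways under VXN in t-hESC: NANOG rose by 0.41 ± 0.0539 (adjusted p = 6.36e-09) and SOX2 fell by 0.32 ± 0.0352 (adjusted p = 3.91e-11). POU5F1 had a log2 fold change of 0.0029 ± 0.0289 under BIX and did not pass (adjusted p = 0.976), and fell by 0.13 ± 0.0289 under VXN (adjusted p = 0.00032). In HT29, KLF4 had 96.3 and 95.7 CPM under VXN, against 17.2 and 16 CPM under DMSO, and rose by 2.53 ± 0.0595 (adjusted p = 3.82e-44). CREBBP rose by 0.79 ± 0.0412 there (adjusted p = 5.55e-26), while TFCP2 fell by 0.31 ± 0.0487 (adjusted p = 7.35e-08).

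Of 18 genes of retroelement silencing, 3 rose and 7 fell under BIX, 0 rose and 10 fell under VXN in t-hESC, and 3 rose and 13 fell under VXN in HT29. Their median log2 fold change was -0.033 under BIX, -0.13 under VXN in t-hESC and -0.66 under VXN in HT29, beside the same medians and shares over all features. UHRF1, which guides maintenance DNA methylation, had 60.2 and 53.2 CPM in t-hESC BIX, 46.1 and 45.7 CPM in t-hESC VXN, against 74 and 73.5 CPM in t-hESC DMSO. In HT29 it had 16 and 16.1 CPM under VXN, against 90.4 and 93.9 CPM under DMSO. It fell in all 3 comparisons, by 0.38 ± 0.053 under BIX (edgeR adjusted p = 6.38e-08), by 0.68 ± 0.0534 under VXN in t-hESC (adjusted p = 1.29e-16) and by 2.52 ± 0.0593 under VXN in HT29 (adjusted p = 3.8e-44).

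Under BIX, CBX5, a heterochromatin protein, rose by 0.30 ± 0.0342 (adjusted p = 1.56e-10), and ATF7IP, a partner of SETDB1, by 0.27 ± 0.0446 (adjusted p = 2.58e-06). TASOR, a subunit of the HUSH silencing complex, rose by 0.22 ± 0.0549 (adjusted p = 0.00122). Under VXN in t-hESC, the DNA methyltransferase DNMT3B fell by 0.45 ± 0.0301 (adjusted p = 1.36e-19), EHMT1 by 0.29 ± 0.0397 (adjusted p = 1.84e-08) and TRIM28 by 0.19 ± 0.0291 (adjusted p = 3.21e-07). Under VXN in HT29, CBX1 fell by 1.34 ± 0.0367, the maintenance methyltransferase DNMT1 by 1.35 ± 0.0421 and the histone methyltransferase SUV39H1 by 2.06 ± 0.0855 (largest adjusted p of the 3, 5.53e-31). Transcript levels of these enzymes do not measure their activity.

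The genes most like HERVH-int in their pattern over the 5 groups were found by the root mean square difference of centred log2 CPM, among 18223 genes. They were DOCK8, a guanine nucleotide exchange factor of immune cells (0.129), ILDR2, a membrane protein of the immunoglobulin family (0.135), the pseudogene LRRC37A11P (0.154), FRMPD3 (0.16) and RNF180, a ubiquitin ligase (0.163). ILDR2 averaged 14.2 CPM in t-hESC BIX, 11.1 CPM in t-hESC VXN and 9.24 CPM in t-hESC DMSO, with 0.518 CPM in HT29 VXN and 0.527 CPM in HT29 DMSO. All 5 were called higher under BIX, where 11.7% of all features were, and none under VXN in t-hESC, where 15.1% were. The genes were picked by their pattern over these same groups, so their calls are no separate support. DOCK8 and RNF180 had 0 counts in HT29, where the prior count of 2 sets the logarithm.

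The 5 HERVH and LTR7 rows were left out of the search among repeat families, and none of the others came as close to HERVH-int as these genes. Far more genes than families were searched, which by itself favours a closer match among genes. Among 854 families the nearest were LTR10G (0.415) and PABL_B-int (0.468), both of ERV1, then the satellite BSR/Beta (0.551), the LINE L1P3b (0.58) and HERV9NC-int (0.648). PABL_B-int averaged 37.6 CPM in t-hESC BIX, 30.1 CPM in t-hESC VXN and 17.8 CPM in t-hESC DMSO, against 2.73 CPM in HT29 VXN and 2.4 CPM in HT29 DMSO. It rose under BIX by 1.08 ± 0.0761 (edgeR adjusted p = 4.66e-18) and under VXN in t-hESC by 0.76 ± 0.0772 (adjusted p = 2.6e-12). This family too was picked by its pattern over the same groups, so these p-values are no separate support. The genes nearest to ESRG were ANOS1, which encodes the matrix protein anosmin (0.197), the glycine decarboxylase GLDC (0.234) and the synaptic adhesion gene NLGN4X (0.275).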

How the data were processed

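The 10 libraries held total RNA prepared with the TruSeq RNA v2 chemistry, per the labels' protocols, a kit without strand information. Tools listed without roles in the submitters' processing notes are STAR, DESeq2 1.34.0, fastp 0.20.1 and FastQC 0.11.9, with the builds hg38 and GRCh38. Not stated are the counting program, the annotation release and the handling of reads that match several repeat copies, all not given in the sources used here. The authors deposited raw counts per gene and per repeat family, each family pooling its copies. Tables of comparisons deposited by the authors hold log2 fold changes and adjusted p-values; whether these were shrunken is not given. The treatment field of the labels gives DMSO for every sample, so groups came from titles. The count table has 4 further sample columns that match no sample and were not used.

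Genes and repeat families were fitted together with edgeR 4.0.16 in R 4.3.3 (quasi-likelihood F test, 5 group means). The fit had 5 residual degrees of freedom over the 10 libraries and a median of 54.5 prior ones shared across features. The common biological coefficient of variation was 0.0207. Library sizes and TMM factors came from genes alone. Features passed a minimum count of 10 (filterByExpr), which left 22495 genes and 1016 repeat families. Benjamini-Hochberg adjustment ran over all 23511, and an adjusted p under 0.05 was a call. The fit was tested on simulated data. These were drawn with the fit's own estimates of spread, and changes were set only in features with higher counts. Rows with few reads, such as HHLA1, were not covered. An exact permutation test of 2 against 2 libraries cannot go below p = 0.333 and was not used. Likeness was computed for features with a mean of at least 1 CPM. The rows named are the 8 chosen, the nearest 5 genes and 5 families to HERVH-int and 3 genes to ESRG, and up to 4 genes by smallest p per list and comparison, with POU5F1 beside them; 1 gene that this rule names is not reported here. The rows and lists were chosen with earlier results of these data known. Alternatives were DESeq2 1.42.0, other scalings and filters, a replicate block and leaving out each library. Gene coordinates are of GRCh38.p14. No sequence of HERVH, LTR7 or ESRG was used here.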

Additional observations from a re-analysis of the deposited data

Results flagged for a closer look

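The effect of VXN differed between t-hESC and HT29 cells by a test of the difference itself in 4 repeat rows. The rows were chosen with their levels in these groups known, so that test is no independent support. The difference, t-hESC minus HT29 on the log2 scale, was 0.72 for HERVH-int, 0.55 for LTR7 and 1.22 for LTR7Y, each of which rose in t-hESC and fell in HT29. For LTR7B it was -0.39, with a log2 fold change of 0.14 in t-hESC that did not pass and 0.53 in HT29 that did. The first 3 differences were called under every alternative run, and that of LTR7B was not. The changes within a line held less well. In t-hESC per repeat count, the rise of HERVH-int was not called (edgeR adjusted p = 0.0694), nor that of LTR7Y (adjusted p = 0.223). In the authors' deposited tables, HERVH-int, LTR7 and LTR7Y did not pass under VXN in either line. Groups of 2 libraries allow no search for a library that stands apart.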

How the results depend on the processing

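Of 474 single values of the tested comparisons under other settings, 440 kept their direction and their side of the threshold. The 474 include fits without a library outside the comparison, which could hardly move the fold change. They also include rows such as HHLA1 that were never called and kept their side by staying so. Another 31 lost the call, 2 gained one and 1 changed sign: LTR7B under VXN in t-hESC was -0.076 per repeat count. The differences between the lines, which had no test, are not among the 474. Those of LTR7B and LTR7C also changed sign under some settings, as given below. Under BIX the calls numbered 3 with DESeq2 and 2 per repeat count, against 6 (5 of them repeats). Under VXN in t-hESC they numbered 2 per repeat count, against 5 (4 of them repeats). Leaving out 1 library gave 3 to 6 calls under BIX, 4 to 5 under VXN in t-hESC, 4 to 5 under VXN in HT29 and 3 to 4 for the difference between the lines. BIX gave 3 calls without t-hESC BIX replicate 2, and 4 without either t-hESC DMSO library. Scaling per repeat count moved the median repeat family by -0.236 under BIX, -0.212 under VXN in t-hESC and -0.512 under VXN in HT29. Upper-quartile factors moved the median gene by 0.112 between the lines under DMSO. The log2 difference of HERVH-int between the lines under DMSO, 3.62, became 3.73 with upper-quartile factors, 3.66 at a minimum count of 50, 3.64 with repeats in the library size, 3.92 per repeat count and 3.59 without a filter. LTR7 became 4.23 with upper-quartile factors and 4.43 per repeat count, LTR7B 0.001 and 0.19, LTR7C -0.073 and 0.12, and LTR7Y -0.41 per repeat count.

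Deviations of same-numbered libraries correlated between -0.0323 and 0.0226, so no sign was seen that replicate numbers pair the samples. A weak pairing could be missed by this check. With a replicate block the calls numbered 6 under BIX, 5 under VXN in t-hESC, 5 under VXN in HT29 and 4 for the difference.

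The pooling of copies within a family and 2 libraries per group limit these results, and HHLA1, ABHD12B and LINC-ROR are too shallow to compare between treatments.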
